A study of Mus musculus with 20 samples.

Results

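Mest and 9 further imprinted genes that act on fetal growth were followed through hearts lacking Creld1 and their controls. They are 10 of the 26440 genes measured, and were taken by symbol: Mest, Igf2, H19, Dlk1, Meg3, Cdkn1c, Plagl1, Peg3, Grb10 and Igf2r. The set was chosen by the measured levels of Mest, which were higher in knockout than in wild-type atria, so the levels of Mest are described below and carry no test, and every count of called genes is a count over the other 9. Each of the 10 passed the filter on low values.

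All mice were of the strain C57BL/6N. The controls were wild-type, and the mutants carried the genotype labelled MyHC-Creld1 KO, a loss of Creld1 restricted to the myocardium. The label names a cardiac myosin heavy chain driver but not the allele or the exons removed, and cells of the heart other than myocardium keep the gene. Whole hearts were taken at the embryonic stage E13.5 from 4 wild-type and 4 knockout embryos of 3 litters. At day 3 after birth (P3) the 2 kinds of chamber, atria and ventricles, were dissected. Per the labels they came from 3 wild-type and 3 knockout pups, 1 pup of each genotype from each of 3 litters. This gave 20 libraries of messenger RNA in 6 groups, with estimated totals of 5138352 to 20669364 counts. Values are the deposited signal, scaled between libraries but not divided by gene length, so levels are compared across libraries within a gene and not between genes.

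An imprinted gene is read from 1 parental copy, because DNA methylation laid down in the egg or the sperm silences the other copy or the regulatory element that serves it. Many imprinted genes set the growth of the fetus and placenta: as a rule, genes read from the paternal copy promote growth and genes read from the maternal copy restrain it. Many are highly expressed before birth and are switched down together as postnatal growth slows. Mest, also called Peg1, is read from the paternal copy and encodes a membrane protein of the endoplasmic reticulum with an alpha/beta hydrolase fold.

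The sequence at the imprinted start of Mest and the microRNAs carried inside 3 of the genes show how these loci are built. Mest spans 30723547 to 30748465 of chromosome 6, plus strand (mm10, GENCODE M21). RefSeq (GRCm38.p6) gives it starts at an upstream promoter and at a downstream, CpG-rich one, which is the promoter known to be imprinted. The 250 bases before each start are shown 5′ to 3′ on the plus strand, with capitals marking TGCCGC or its reverse complement GCGGCA, the core of the sequence bound by the imprint-protecting factor ZFP57. The methylation of these bases was not measured, and a match is only a match.
Mest, downstream start, chr6:30737800-30738049: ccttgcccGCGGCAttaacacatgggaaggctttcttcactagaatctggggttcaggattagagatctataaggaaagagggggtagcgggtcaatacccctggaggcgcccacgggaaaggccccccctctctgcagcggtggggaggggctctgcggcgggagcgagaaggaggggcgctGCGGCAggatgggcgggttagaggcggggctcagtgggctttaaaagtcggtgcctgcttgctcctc
Mest, upstream start, chr6:30733256-30733505: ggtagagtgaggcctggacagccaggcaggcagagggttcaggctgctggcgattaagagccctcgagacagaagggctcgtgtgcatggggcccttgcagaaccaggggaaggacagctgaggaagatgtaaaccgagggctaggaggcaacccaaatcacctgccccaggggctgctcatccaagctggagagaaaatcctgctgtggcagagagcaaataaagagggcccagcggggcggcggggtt
In the 300-base windows that add the first 50 bases after the start, the downstream start held 17 CpG dinucleotides and 2 matches. The upstream start held 8 CpG dinucleotides and 0 matches. Over all 32851 RefSeq promoter windows of that length the median was 7 CpG, and 11.6% held at least 1 match on either strand. Of the 10 genes 8 had a RefSeq window, 15 windows in all, and 6 of the 15, from 5 genes, held a match. Among the 6 are overlapping Mest windows, starting at 30737800 and 30737803, that hold the same 2 matches. The core itself contains a CpG, and 12 of the 15 windows held more CpG than the median. The share over all windows is therefore no matched comparison for these genes.

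Mature microRNAs are cut from an intron of Mest (miR-335), an exon of H19 (miR-675) and an intron of Igf2 (miR-483). They are shown with the seed, bases 2 to 8, in capitals, because the seed is the part that pairs with target messages. No 2 of the 6 share a seed, and none of the 3 host precursors was a row of the table, so their levels were not analysed here.
mmu-miR-335-3p: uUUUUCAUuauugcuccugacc
mmu-miR-335-5p: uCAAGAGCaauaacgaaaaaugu
mmu-miR-675-3p: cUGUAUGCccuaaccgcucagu
mmu-miR-675-5p: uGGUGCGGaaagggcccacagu
mmu-miR-483-3p: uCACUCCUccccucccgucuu
mmu-miR-483-5p: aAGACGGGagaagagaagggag

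Creld1 itself, the targeted gene, was 34.0 to 92.2 in wild-type and 4.64 to 70.9 in knockout E13.5 hearts. It was 21.6 to 146 and 23.1 to 82.4 in atria, and 59.7 to 130 and 19.9 to 59.3 in ventricles. The libraries labelled knockout replicate 1 at E13.5 and knockout replicate 2 in atria exceeded their wild-type partners, so the direction of each knockout difference below rests on the labels. The third atrial pair stood apart in several of the 10 genes. There the summed signal of 10 ventricular genes was 11650 in wild-type and 12006 in knockout, against 48372 to 93588 in the other 4 atrial libraries, the highest being wild-type replicate 2. The third pair differed over the whole library as well. Signal summed over all genes was 5.78e+06 (wild-type) and 6.60e+06 (knockout), against 9.55e+06 to 1.14e+07 in the other 4. Genes above 0 numbered 22819 and 23457, against 18357 to 21409. Knockout and wild-type libraries of the same number share a litter.

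Mest was high in knockout atria and low in wild-type atria. Its signal was 9463, 13530 and 12112 in knockout atrial replicates 1 to 3 and 2405, 3004 and 2306 in the wild-type replicates. No knockout atrial library came near a wild-type one. The log2 difference of the means was 2.18 with an SE of 0.24, a 4.53-fold higher level, and within the 3 litters the log2 difference ran from 1.98 to 2.39. In litter 2, where the library labelled knockout was no lower in Creld1, Mest was 13530 in knockout and 3004 in wild-type.

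Mest was not higher in the knockout in ventricles or at E13.5. In ventricles it was 2706, 2727 and 3125 (wild-type) against 2645, 1941 and 2292 (knockout). All 3 knockout ventricles were below the lowest wild-type one, with a log2 difference of -0.32 and an SE of 0.24. The limma interval of that difference ran from -0.82 to 0.17. In ventricles 4.97% of all genes were higher without overlap, and the share that were lower is not given here. In E13.5 hearts Mest was 9735, 12569, 11476 and 11411 in wild-type replicates 1 to 4 and 10213, 8813, 9037 and 12390 in knockout. The groups overlapped there, with a log2 difference of -0.17.

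The order of the 6 groups fell into a high and a low set. The highest mean was that of knockout atria, 11702 ± 2064 (SD, n = 3), followed by wild-type E13.5 hearts at 11298 ± 1169 (SD, n = 4) and knockout E13.5 hearts at 10113 ± 1638 (SD, n = 4). Neighbours among these 3 differed by less than the larger of their SDs. Far below them came wild-type ventricles at 2853 ± 236 (SD, n = 3), wild-type atria at 2572 ± 378 (SD, n = 3) and knockout ventricles at 2292 ± 352 (SD, n = 3). These neighbours too differed by less than the larger of their SDs. The Mest signal of knockout atria was thus near that of whole E13.5 hearts, and no embryonic atria were sampled for comparison. Wild-type atria had a log2 difference of -2.14 from wild-type E13.5 hearts and wild-type ventricles one of -1.98.

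**Figure D1:**
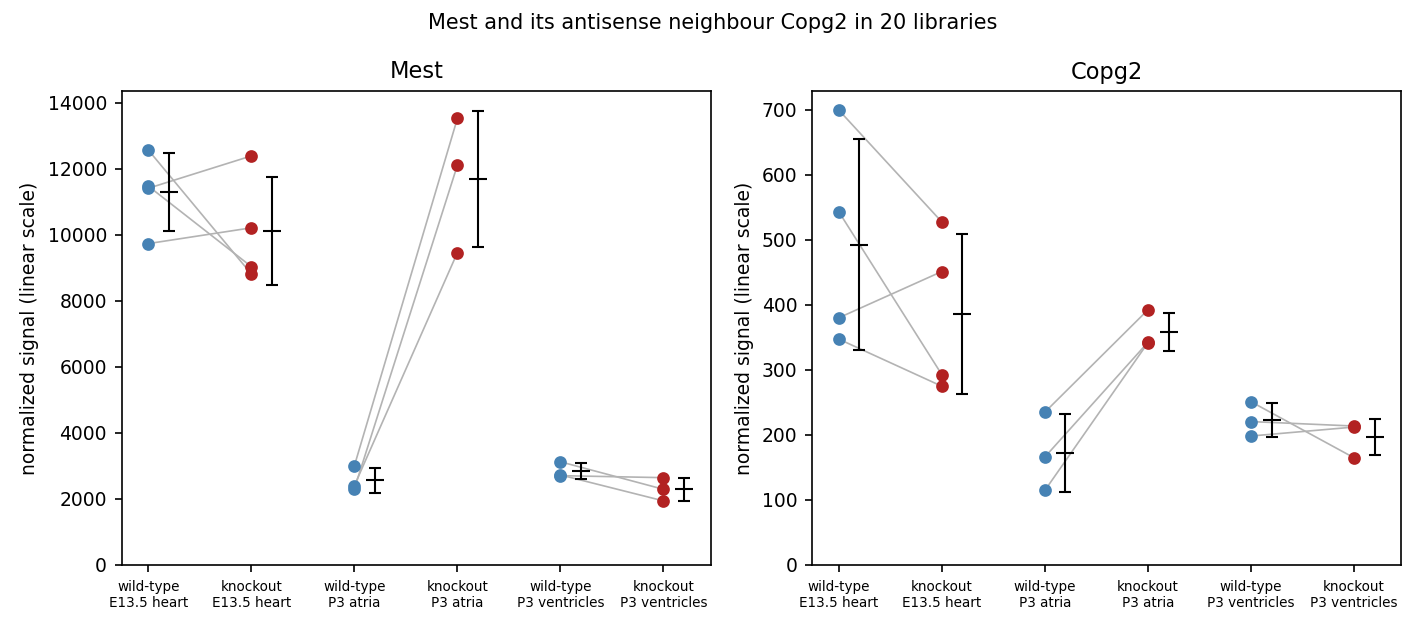
Deposited signal (linear axis from 0) of Mest and of its antisense neighbour Copg2 in the 20 libraries, by stage, tissue and genotype. Points are libraries, blue wild-type and red knockout, grey lines join libraries of the same replicate number, and black marks are the mean and SD (n = 4 at E13.5, n = 3 at P3). For Mest the 3 knockout atria, at 9463 to 13530, sit among the E13.5 hearts, and the 9 other P3 libraries lie at 3125 or below.

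Per the labels both chambers came from each pup. Xist, however, was 2876 in wild-type atrial replicate 2 and 74.9 in wild-type ventricular replicate 2. In every other pup it was high in both chambers or low in both. Whether the wild-type libraries of replicate 2 share a pup is thus in doubt, and the within-pup values that use them rest on the labels. At E13.5 Xist was 2407, 17.8, 2369 and 2670 (wild-type) against 38.2, 3003, 33.0 and 35.9 (knockout), high in 1 library of each pair. The first P3 pair differed likewise, at 3596 against 20.4 in atria and 2791 against 21.6 in ventricles. Sex, as read from Xist, was thus not matched within these pairs, and its part in the genotype differences was not tested. In knockout pups Mest in ventricles minus atria was -2.35 on the log2 scale with an SE of 0.33, and in wild-type pups it was 0.16 with an SE of 0.33 (-0.23 after quantile normalization). The difference of these differences was -2.50 with an SE of 0.47. Over the 12 alternatives, wild-type pup 2 left out among them, it ran from -2.76 to -2.28.

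Cell marker lists were also compared between genotypes in atria, and their part in the level of Mest was not tested. Of the atrial sums below, those of all but the erythroid and fibroblast lists overlapped between genotypes. The summed signal of 10 erythroid genes was 15596 to 18834 in wild-type and 31103 to 133150 in knockout atria, and 9 of 10 were higher in knockout. That sum was also high at E13.5, at 47296 to 245250, and in ventricles it was 10368 to 25494 in wild-type and 17665 to 30961 in knockout. Among 15 fibroblast genes, 5 were higher and 10 lower in knockout atria, with sums of 70624 to 76599 against 90663 to 96329. In that list Lum, which encodes a matrix proteoglycan and is named after its values were seen, was the 1 gene called, lower in knockout, with a log2 difference of -1.82 (limma adjusted p = 0.013). The call was lost without knockout atrial replicate 1 or wild-type atrial replicate 1 or 2 (adjusted p = 0.073 to 0.12) and with atria fitted alone. Of 10 ventricular genes 1 was higher and 9 were lower, with sums of 12006 to 67236 in knockout and 11650 to 93588 in wild-type. Irx4, which encodes a ventricular transcription factor, was listed at 0 in every atrial library but wild-type replicate 2, where it was 26.5. The sums of 10 smooth muscle and pericyte genes were 5739 to 12352 in knockout and 1917 to 6899 in wild-type, with 4 of 10 higher. Of 6 skeletal muscle genes tested 4 were higher, with overlapping sums. Of 7 adipocyte genes tested 2 were higher and 5 lower, with sums of 3134 to 6391 in knockout and 4173 to 14003 in wild-type. In that list Adipoq and Cidec were listed at 0 in every atrial library but wild-type replicate 3, where they were 145 and 26.4. Among 10 atrial myocyte genes 7 were higher, with sums of 158360 to 449330 in knockout and 82662 to 170220 in wild-type. Of 10 endothelial genes 8 were higher (sums of 5818 to 8660 against 5114 to 6894), and of 10 epicardial genes 8 were lower (1624 to 2223 against 2019 to 3586). Among 10 macrophage genes 4 were higher, with overlapping sums. In bulk tissue, fewer cells of a type and less RNA per cell cannot be told apart.

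None of the other 9 genes passed the test in knockout atria (0 of 9, limma with Benjamini-Hochberg adjustment over 18125 genes, every adjusted p = 1), where 0.0276% of all genes were called, and none had an unadjusted p under 0.05, where 964 of all genes did. Among them 6 had a positive and 3 a negative difference, with a median of 0.10 beside 0 for all genes. Their 95% intervals together ran from -2.25 to 1.23 on the log2 scale. At E13.5 0 of 9 passed, with 0% of all genes called, and in ventricles 0 of 9 with 0%. By limma, 0 of the 9 had an unadjusted p under 0.05 in those tissues as well, and 747 and 707 of all genes did.

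Igf2 encodes a fetal growth factor of the insulin family and is read from the paternal copy. It lies on chromosome 7, minus strand, between 142650766 and 142666816, and 62.8% of its exonic length is shared with Gm49394 on the same strand, which is no row of the table. In atria it was 2859, 2150 and 5389 (wild-type) against 3360, 3055 and 5143 (knockout), with the highest value of each genotype in the third pair. Genotypes overlapped, and the log2 difference was 0.22 with an SE of 0.29. In ventricles it was 1402, 1128 and 916 (wild-type) against 1517, 1615 and 1404 (knockout). Every knockout ventricle was above the highest wild-type one, the closest being 1404 and 1402, and the log2 difference was 0.42 with an SE of 0.29. At E13.5 Igf2 ranged from 4070 to 4577 in wild-type and from 3767 to 4930 in knockout.

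H19 is a maternally read long non-coding RNA that shares enhancers with Igf2, at 142575529 to 142578143 of the same strand. In atria it was 3397, 2252 and 7802 (wild-type) against 4578, 4316 and 6677 (knockout). The third pair again held the highest values, and the log2 difference was 0.38 with an SE of 0.35 (-0.016 without the second wild-type library). In ventricles the values were 1459, 1305 and 930 (wild-type) against 1593, 1875 and 958 (knockout), higher in knockout in each of the 3 litters though the groups overlapped. At E13.5 they were 9702, 7472, 7602 and 8411 (wild-type) against 7167, 6129, 6804 and 7122 (knockout). All 4 knockout hearts were below the lowest wild-type heart, with a log2 difference of -0.28 and an adjusted p of 1. H19 was the 1 gene of the 9 whose genotypes did not overlap at E13.5, where 1.25% of all genes were lower without overlap.

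Igf2r encodes the receptor that clears IGF2 by carrying it to lysosomes, and it is read from the maternal copy (chromosome 17, minus strand, 12682406 to 12769664). It was 19389, 15480 and 4551 (wild-type) against 17376, 21139 and 3926 (knockout) atria. Both libraries of the third litter were far below the other 4, and the genotypes did not separate, with a log2 difference of 0.026 and an SE of 0.58. Among E13.5 hearts wild-type replicate 1 stood out at 12317, with the other 7 between 30884 and 48712. In ventricles Igf2r was 12117, 15396 and 10693 (wild-type) against 10684, 15697 and 13333 (knockout), fully overlapping.

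Grb10, at 11930508 to 12038683 on the minus strand of chromosome 11, encodes an adaptor that dampens insulin and IGF1 receptor signalling. In ventricles it was 2414, 2289 and 1714 (wild-type) against 2917, 2694 and 2919 (knockout). All knockout ventricles exceeded all wild-type ones, and the log2 difference was 0.43 with an SE of 0.22 and an adjusted p of 1. Igf2 and Grb10 were the 2 of 9 that did not overlap in ventricles, both higher in knockout; 4.97% of all genes were higher without overlap. In atria Grb10 was 1244, 1507 and 1304 (wild-type) against 1643, 1532 and 1364 (knockout), with overlap, a log2 difference of 0.16. At E13.5 the range was 4073 to 5300 in wild-type and 4014 to 5020 in knockout.

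Cdkn1c encodes p57, an inhibitor of cyclin-dependent kinases that stops cells from dividing, and is read from the maternal copy (chromosome 7, minus strand, 143458339 to 143461050). An annotated antisense transcript, Gm44732, shares 30.7% of its exonic length, and reads of the pair cannot be told apart if strand was not used. In atria it was 577, 436 and 306 (wild-type) against 592, 616 and 262 (knockout), with the third pair lowest in both. The ventricular values were 340, 233 and 208 (wild-type) against 336, 444 and 225 (knockout). The genotypes overlapped in each tissue, with log2 differences of 0.10 and 0.34. In E13.5 hearts Cdkn1c ranged from 3122 to 5065 in wild-type and from 3508 to 4169 in knockout.

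Dlk1 (109452823 to 109463336) and Meg3 (109541001 to 109571726) lie in 1 imprinted domain on the plus strand of chromosome 12. Dlk1, read from the paternal copy, encodes a membrane protein related to Notch ligands that holds back differentiation, and its signal rested on few reads. In atria it was 23.9, 28.4 and 15.0 (wild-type) against 13.3, 10.8 and 11.3 (knockout). It was the 1 gene of the 9 whose atrial genotypes did not overlap, lower in all 3 knockout libraries, where 3.99% of all genes were lower without overlap. The log2 difference of -0.83 with an SE of 0.68 had an adjusted p of 1. In ventricles Dlk1 was 59.4, 94.8 and 8.59 (wild-type) against 47.8, 41.7 and 34.1 (knockout), with 1 wild-type library below all knockout ones. The ventricular log2 difference was 0.13, and -0.86 without the third wild-type library. At E13.5 it was 242, 102, 108 and 133 (wild-type) against 127, 131, 81.8 and 44.9 (knockout).

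Meg3 is the maternally read long non-coding RNA of that domain. In atria it was 866, 625 and 2624 (wild-type) against 1127, 744 and 2344 (knockout), again with the third pair highest. The ventricular signal was 1078, 621 and 336 (wild-type) against 985, 741 and 636 (knockout). Genotypes overlapped in both chambers, with log2 differences of 0.16 and 0.35. At E13.5 Meg3 ranged from 1243 to 1787 in wild-type and from 1522 to 1680 in knockout.

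Plagl1 and Peg3 encode paternally read zinc-finger proteins, and PLAGL1 is known to act on other imprinted genes. Plagl1 spans 13060504 to 13131694 of chromosome 10, plus strand, and Peg3 spans 6703892 to 6730431 of chromosome 7, minus strand. Plagl1 was 7761, 5545 and 2025 (wild-type) against 6092, 7522 and 1216 (knockout) atria. The third pair was the lowest, as for Igf2r, and its log2 difference was -0.21 with the third pair and 0.045 without it. In ventricles Plagl1 was 2980, 3946 and 2472 (wild-type) against 4617, 4045 and 3101 (knockout), and at E13.5 it ran from 4861 to 11403 and from 7433 to 11057. Peg3 was 4547, 2671 and 2508 (wild-type) against 3465, 2340 and 1873 (knockout) atria, lower in knockout within each litter, with overlapping groups and a log2 difference of -0.33. In ventricles it was 1476, 1334 and 773 (wild-type) against 1365, 1500 and 583 (knockout). At E13.5 Peg3 was higher in knockout within each of the 4 pairs, at 3208, 2793, 2271 and 3354 (wild-type) against 3506, 3566, 2988 and 3540 (knockout), with a log2 difference of 0.24. Xist also differed within each of these pairs, and the part of sex was not tested.

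**Figure D2:**
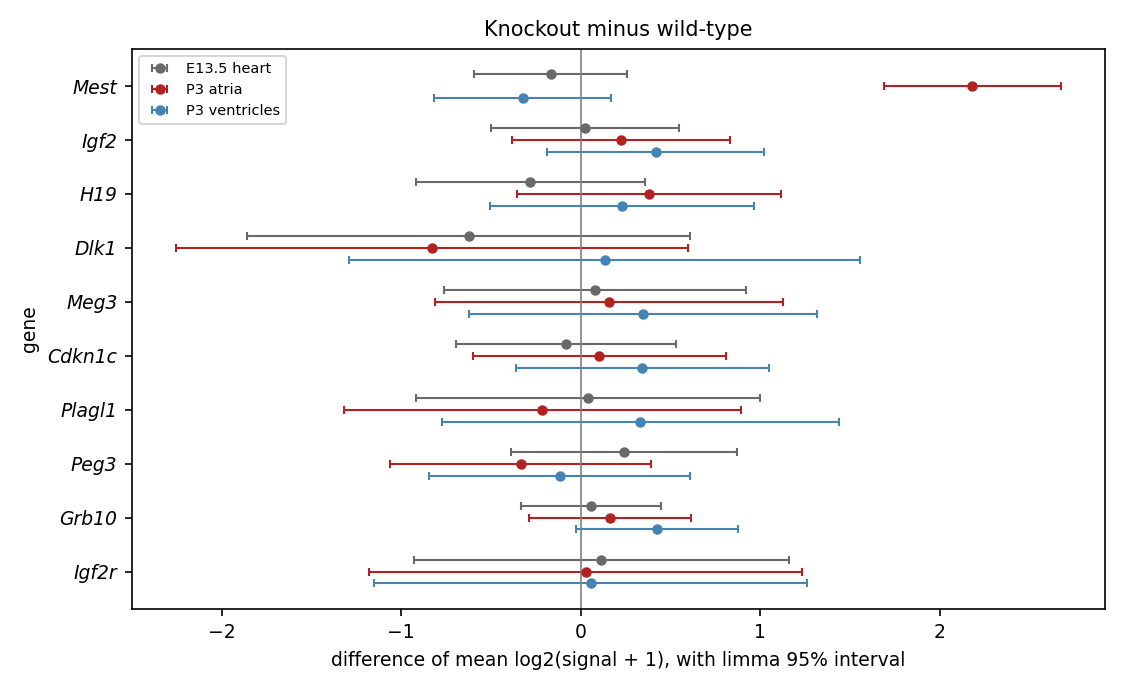
Knockout minus wild-type difference of the mean log2(signal + 1) for the 10 genes in E13.5 hearts, P3 atria and P3 ventricles, with 95% intervals from limma. Mest lies at 2.18 in atria, the difference for which it was chosen, so its interval there is no test. The intervals of the other 9 genes all include 0.

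In wild-type hearts many of the 9 were lower after birth. In P3 ventricles all 9 tested genes had lower means than in E13.5 hearts, with a median log2 difference of -1.44 beside 0 for all genes. The test was passed by 5 of 9, all lower, where 1.74% of all genes were called lower, and in 8 of 9 the groups did not overlap, lower in ventricles, where 8.41% of all genes were. Cdkn1c fell most, by 3.98 on the log2 scale (SE 0.32, limma adjusted p = 1e-07), from 3122 to 5065 in E13.5 hearts to 208 to 340 in ventricles. H19 fell by 2.77 (adjusted p = 2.2e-05) and Igf2 fell by 1.91 (adjusted p = 0.00015), from ranges of 7472 to 9702 and 4070 to 4577 to 930 to 1459 and 916 to 1402. Peg3 fell by 1.32 (adjusted p = 0.019) and Grb10 fell by 1.10 (adjusted p = 0.0020). Dlk1, Plagl1, Meg3 and Igf2r had log2 differences of -1.85, -1.44, -1.30 and -1.30 that did not pass, with adjusted p from 0.093 to 0.20. Without the third atrial pair, whose spread enters the shared fit, 8 of 9 passed in ventricles.

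In wild-type P3 atria 3 of 9 passed against E13.5 hearts, all lower, where 2.39% of all genes were called lower, and the same 3 did not overlap, beside 6.74% of all genes lower without overlap. Cdkn1c fell by 3.24 (limma adjusted p = 3.1e-06), Dlk1 fell by 2.60 (adjusted p = 0.019) and Grb10 fell by 1.75 (adjusted p = 2.1e-05). For Igf2 the log2 difference was -0.41, for Meg3 -0.42 and for Peg3 0.12, all with overlapping groups. H19 at -1.08 (adjusted p = 0.059), Plagl1 at -0.91 and Igf2r at -1.48 did not pass either. The third atrial pair bears on several of these: without it Igf2 (-0.78, adjusted p = 0.013) and H19 (-1.58, adjusted p = 0.00053) passed, and Dlk1 did not (-2.35, adjusted p = 0.063). Without knockout atrial replicate 3 alone, 5 of 9 passed. Stage is confounded here with dissection of the chambers and mostly with the preparation date, so these cannot be told apart. With the 1 E13.5 pair prepared in the same year as the pups alone, only Cdkn1c passed in either chamber, although no called gene turned direction.

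Cell markers also differed between these stages, and their part in the values was not tested. Of 10 erythroid genes 10 were lower in wild-type atria and 9 in ventricles than at E13.5, with sums of 60753 to 234120 at E13.5, 15596 to 18834 in atria and 10368 to 25494 in ventricles. All 15 fibroblast genes were higher in atria and 12 of 15 in ventricles, with sums of 26428 to 31832, 90663 to 96329 and 54819 to 59542.

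**Figure D3:**
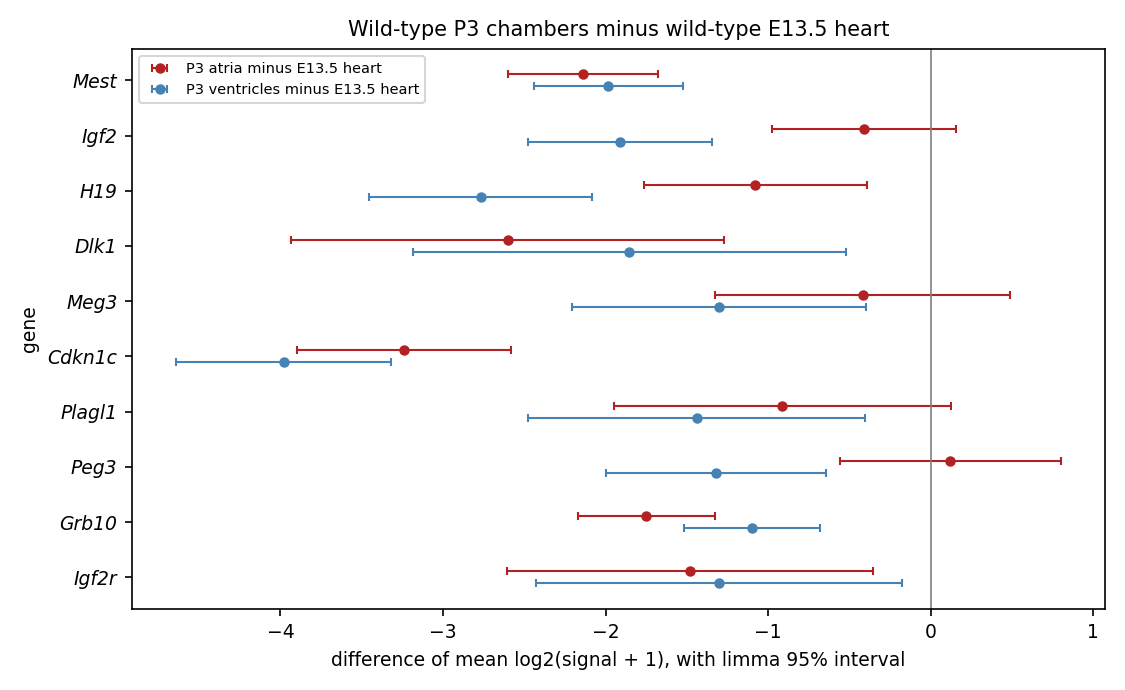
Wild-type P3 atria and ventricles minus wild-type E13.5 hearts, as differences of the mean log2(signal + 1) with 95% intervals from limma, for the 10 genes. Cdkn1c lies farthest to the left, at -3.24 in atria and -3.98 in ventricles, and Igf2, H19 and Peg3 are lower in ventricles than in atria relative to the same E13.5 hearts.

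Direct comparison of the chambers within a pup left these differences unresolved. In wild-type pups 0 of 9 passed limma's test of ventricles minus atria, where 0.0883% of all genes were called, and 5 of 9 had an unadjusted p under 0.05, as did 1789 of all 18125 genes. Peg3 at -1.44, H19 at -1.69 and Igf2 at -1.50 were lower in ventricles and Grb10 at 0.65 was higher, each without overlap between chambers, beside 16% of all genes that did not overlap in either direction. Their adjusted p ran from 0.19 to 0.50. In knockout pups 0 of 9 passed, with 0.199% of all genes called and 4 of 9 at an unadjusted p under 0.05, beside 1682 of all genes. There the differences were -1.22 for Peg3, -1.84 for H19, -1.31 for Igf2 and 0.91 for Grb10. By limma's within-pup test of whether the knockout difference itself differed between chambers, 0 of 9 were called, with 0% of all genes called and 0 of 9 at an unadjusted p under 0.05, beside 469 of all genes; the intervals ran from -1.88 to 3.38.

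**Figure D4:**
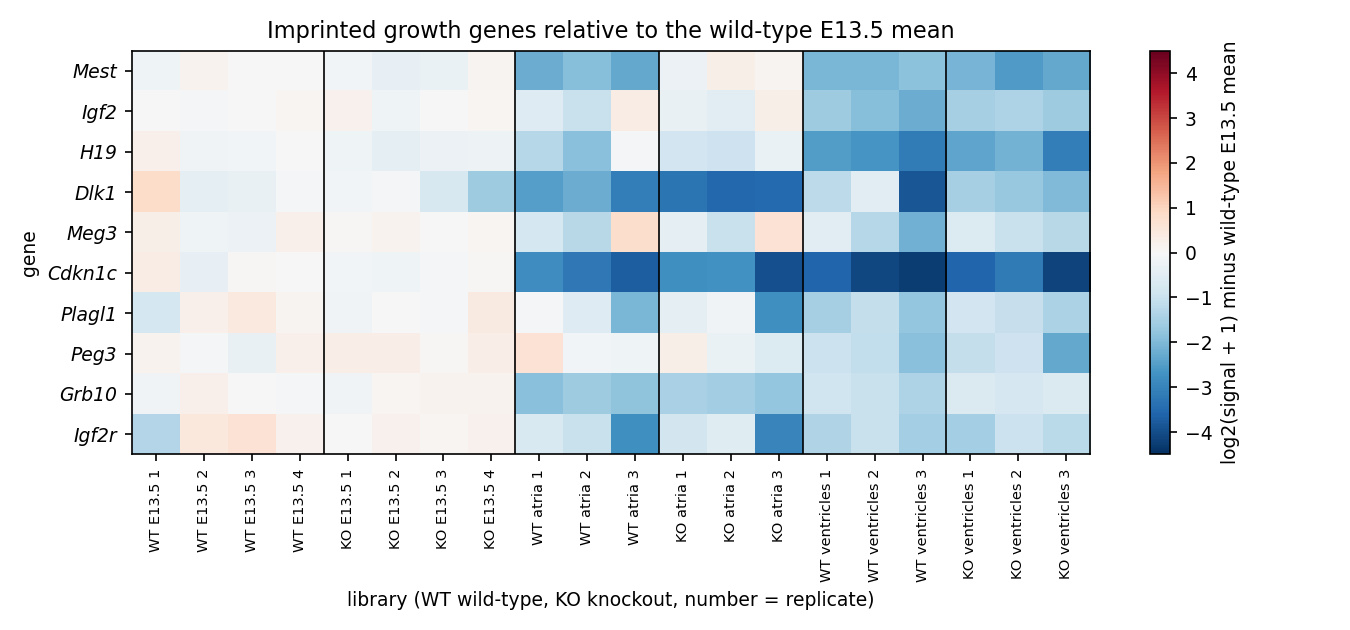
Log2(signal + 1) of each of the 10 genes in each library, minus the mean of the 4 wild-type E13.5 hearts. Blue is lower and red higher. Mest, chosen for its rise in knockout atria, is the 1 row in which those 3 are near the E13.5 level and the 3 wild-type atria are not. The third atrial pair differs from the other pairs in Igf2, H19, Meg3, Plagl1 and Igf2r in both genotypes.

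Across the 20 libraries H19 (Pearson r = 0.77), Cdkn1c (0.73) and Igf2 (0.72) were the members closest to Mest, and Dlk1 (0.27) the farthest. All libraries share the stage and tissue differences above, and once each group's mean was taken away the correlations of the 9 with Mest ran from -0.39 to 0.20. Among 8312 genes of at least median level, those most like Mest over the 20 libraries were Pgam1 (0.857), Serf1, Jpt2, Rpl14, Myh10, Arl6ip1, Tmem2, Ect2, Rcn1 and Id2 (0.825). Pgam1 encodes a glycolytic enzyme, Myh10 a non-muscle myosin heavy chain, Ect2 a factor needed for cell division, and Id2 an inhibitor of basic helix-loop-helix factors. By Spearman's rank correlation 3 of these 10 stayed among the first 10, and without the knockout atria 2 did. For deviations from the group means the first 5 were Rps26-ps1 (0.865), Got1 (0.832), Txlng, Poc5 and Hspb3. These are descriptions over libraries that share groups and litters.

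The neighbours of Mest on chromosome 6 were read next. Copg2, which encodes a coat protein of transport vesicles, lies from 30747554 to 30896794 on the minus strand, and its 3′ end overlaps that of Mest. The genes share 912 exonic bases, 23.1% of the exonic length of Mest and 17.8% of that of Copg2. Whether the counting used strand is not given in the sources used here, so reads in the overlap cannot be told apart. Mest reads there may have been counted for Copg2, and their part in its values was not tested. Copg2 was 235, 115 and 166 (wild-type) against 392, 342 and 342 (knockout) atria. All 3 knockout libraries were above the highest wild-type one, and the log2 difference of 1.11 (SE 0.34) did not pass (limma adjusted p = 0.57). In atria 3.99% of all genes were lower without overlap, and the share that were higher is not given here. The log2 difference of Copg2 was -0.18 in ventricles and -0.35 at E13.5. In wild-type atria Copg2 fell by 1.52 from E13.5 (adjusted p = 0.0069). For Cep41, which encodes a centrosomal protein, atrial values were 156, 103 and 16.4 (wild-type) against 244, 120 and 63.3 (knockout), overlapping. Klf14, a transcription factor gene that is also imprinted, was 1.42, 42.0 and 8.81 (wild-type) against 156, 132 and 38.3 (knockout) atria, a difference that varied widely and did not pass (adjusted p = 0.94). Tsga13 was 2.94 to 15.9 in wild-type and 10.4 to 12.2 in knockout atria. None of Copg2, Cep41, Klf14 and Tsga13 passed in atria.

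Neighbours of the other loci gave 0 calls between genotypes and several between stages. Next to Igf2 and H19, Tnni2, which encodes fast skeletal troponin I, fell in both wild-type chambers, with log2 differences of -1.93 (limma adjusted p = 0.045) in atria and -2.37 (adjusted p = 0.013) in ventricles. Igf2os, the antisense transcript at Igf2, was called lower in ventricles (limma adjusted p = 0.028), where it was listed at 0 in all 3 wild-type libraries, against 2.55 to 16.4 in E13.5 hearts. Next to Cdkn1c, Kcnq1ot1, the long non-coding RNA that silences genes of that domain on the paternal copy, had differences of -1.44 in atria and -1.62 in ventricles, both called. Kcnq1, which encodes a cardiac potassium channel, rose by 3.26 in ventricles (adjusted p = 0.040). Ddc, beside Grb10, fell by 3.11 in atria (adjusted p = 0.018). Zim1, beside Peg3, fell by 3.02 in ventricles (adjusted p = 0.0034). It was also the 1 neighbour called between chambers, at -4.49 for ventricles minus atria in knockout pups (limma adjusted p = 0.035), a call lost when 5 of the 6 pups were left out in turn. Acat2, beside Igf2r, had a called difference of -2.45 in ventricles.

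Several of these stage calls of neighbours rest on single libraries. Ddc was -1.67 without wild-type atrial replicate 3 (limma adjusted p = 0.095) and -4.25 without replicate 2. Kcnq1ot1 in atria was also lost without that replicate 3 (-1.11, adjusted p = 0.059). Kcnq1 was 2.24 without wild-type E13.5 replicate 1 (adjusted p = 0.11), and it did not pass when any 1 of the 3 wild-type ventricles was left out (adjusted p = 0.086 to 0.15). Igf2os did not pass with any 1 of those ventricles left out either (adjusted p = 0.085 to 0.089), or with a pseudocount of 10. Acat2 was lost without wild-type E13.5 replicate 1 or wild-type ventricular replicate 2 or 3 (adjusted p = 0.089 to 0.14), and was -3.11 without ventricular replicate 1. Tnni2 in atria was lost in 12 of the 20 fits that leave out 1 library (adjusted p up to 0.14), and in ventricles without wild-type replicate 1 (adjusted p = 0.081).

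The wider set of imprinted genes gave no call in the knockout. Of 75 listed, 69 were in the table and 58 were tested, and 0 of 58 passed in E13.5 hearts, atria or ventricles. Median differences were 0.041, -0.086 and -0.13, beside 0.010, 0 and -0.012 for all genes. The smallest unadjusted p in atria belonged to Copg2 and to Ampd3, at a log2 difference of -2.01 (limma adjusted p = 0.89). At E13.5 they belonged to Rian, a non-coding RNA of the Dlk1 and Meg3 domain, at 0.55, and to H13 at 1.17. In ventricles they belonged to Zim1 at -1.57 and Slc22a3, which was listed at 0 in all 3 knockout ventricles and at 22.6, 0 and 15.2 in the wild-type ones. Between wild-type stages 0 rose and 6 of 58 fell in atria, with a median of -0.029, beside 3.11% and 2.39% of all genes called higher and lower. In ventricles 1 rose and 5 fell, with a median of -0.19, beside 3.35% and 1.74%. Those that fell in atria included Dlx5, with a log2 difference of -3.66, Asb4 at -1.67 and Slc38a4, an amino acid transporter gene, at -1.57. In ventricles they included Nnat at -4.23 and Zdbf2 at -2.79. Each of these but Slc38a4 rests on single libraries. Dlx5, which was -1.26 with a pseudocount of 10, was lost without wild-type E13.5 replicate 3 or 4 or wild-type atrial replicate 2 or 3 (limma adjusted p = 0.056 to 0.087). Asb4 was lost without wild-type E13.5 replicate 3 or 4 or wild-type atrial replicate 1 (adjusted p = 0.052 to 0.083), and was -1.06 without atrial replicate 3 (adjusted p = 0.19). Nnat was -3.05 without wild-type ventricular replicate 2 (adjusted p = 0.065) and -4.86 without replicate 3, and Zdbf2 was -1.94 without replicate 1 (adjusted p = 0.071).

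Genes of insulin-like growth factor signalling gave no call in the knockout, 0 of 23 in each tissue. The lowest unadjusted p in atria belonged to Igfbp5 at -1.37 and Igfbp3 at 1.49, both binding proteins for IGFs, neither passing (limma adjusted p = 0.34 and 0.87). Neither overlapped between genotypes, Igfbp5 being lower and Igfbp3 higher in knockout. In atria 3.99% of all genes were lower without overlap, and the share that were higher is not given here. At E13.5 they belonged to Rps6kb1 at -0.59 and Insr at 0.63, and in ventricles to Igf2bp2 at 0.88 and Irs1 at 1.13. After birth in wild-type atria 2 of 23 rose, Igfbp6 by 5.17 and Igfbp7 by 3.81, and 2 fell, the RNA-binding protein genes Igf2bp2 (-2.01) and Igf2bp3 (-1.55). In ventricles Igfbp7 rose by 3.48 while Igfbp5 (-1.77) and Igf2bp2 (-1.90) fell. Of all genes, 3.11% were called higher and 2.39% lower in atria, and 3.35% and 1.74% in ventricles. Igf2bp3 was lost without wild-type atrial replicate 3 (-0.99, limma adjusted p = 0.059), and Igf2bp2 in ventricles without wild-type ventricular replicate 2 (-1.33, adjusted p = 0.085). Igfbp6 in atria was 4.09 without wild-type atrial replicate 3, 5.83 without replicate 1 and 5.85 without wild-type E13.5 replicate 4, each time called.

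Genes known to decline as fetal growth ends were then compared, since the level of Mest in knockout atria was near that of whole E13.5 hearts. The list holds genes known to fall and was made with earlier results known, so falls between stages are no independent result. In wild-type atria 9 of 22 fell and 1 rose, beside 2.39% and 3.11% of all genes called lower and higher. The median log2 difference of the 22 was -1.34 there, beside 0.092 for all genes. In ventricles 6 of 22 fell and 0 rose, beside 1.74% and 3.35%, with a median of -1.19 beside 0. Hmga2, which encodes a fetal chromatin protein, fell in atria (-5.11) and ventricles (-4.48), as did Sox11 (-2.85 and -2.03) and Col2a1, a cartilage collagen gene also active in the embryonic valves, which was 106 to 316 at E13.5, listed at 0, 0 and 2.94 in wild-type atria, and at 0 in all 3 wild-type ventricles. Lin28b, a regulator of let-7 microRNAs, fell by 4.59 in atria. Sox4 rose by 1.22 in atria (limma adjusted p = 0.048), a call lost in 16 of the 20 fits that leave out 1 library (adjusted p up to 0.19). Without single wild-type libraries of the chamber, Hmga2 ran from -5.89 (without atrial replicate 1) to -4.51 (without replicate 2) in atria and was -3.82 in ventricles without replicate 3. Lin28b was -5.30 without atrial replicate 1 and -3.63 without replicate 2, and each of these stayed called. In the knockout 0 of 22 passed in any tissue. In knockout atria 14 of 22 had a positive difference, with a median of 0.26 beside 0 for all genes. The smallest p were those of Sox11 at 1.35 (SE 0.38, limma adjusted p = 0.46) and of Lin28b at 2.26 (SE 0.96, adjusted p = 0.87). The groups of Lin28b overlapped. At E13.5 they were those of Lin28b at -1.44 and Gli2 at -1.99, and in ventricles those of Vcan at 0.77 and Igf2bp2 at 0.88.

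MEST is known to affect the maturation of the WNT co-receptor LRP6, so genes of WNT signalling were listed: receptors, ligands, secreted modulators and intracellular effectors. In the knockout 0 of 16 tested passed in any tissue. Lrp6 had an atrial log2 difference of -0.96 (SE 0.39, adjusted p = 0.85 by limma) and Sfrp2, a secreted WNT inhibitor, one of 1.12, both with overlapping groups. In ventricles Fzd2, a WNT receptor, was 1.83 higher without overlap (limma adjusted p = 0.70), and Sfrp2, at 0.92, was also higher without overlap. There 4.97% of all genes were higher without overlap. At E13.5 the smallest p were those of Wnt11 at 1.17 and Fzd1 at 0.26. Between wild-type stages Dkk3 rose by 2.58 in atria, and Fzd2 (-2.28) and Sfrp1 (-2.02) fell in ventricles.

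Genes that keep or erase imprints gave 0 of 13 calls in the knockout in each tissue. Those nearest to a call in atria were Tet1, an enzyme that oxidises methylated cytosine, at -1.30 and Uhrf1, a partner of the maintenance methyltransferase, at 0.94 (limma adjusted p = 0.88 and 0.99). At E13.5 they were Dnmt3a at -0.49 and Dnmt1 at -0.43, and in ventricles Dnmt3a at 0.32 and Dnmt3b at 1.68. Dnmt3a, a de novo DNA methyltransferase gene, fell after birth in wild-type hearts with log2 differences of -1.17 in atria and -1.40 in ventricles. Dnmt1, which encodes the maintenance enzyme, fell by 1.03 in ventricles (limma adjusted p = 0.026), a call lost without wild-type E13.5 replicate 1 or 3 or any 1 wild-type ventricle (adjusted p = 0.064 to 0.12).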

How the data were processed

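RNA was isolated with an RNeasy Micro kit and turned into cDNA libraries by SMART-Seq2, per the labels' protocols. Tools named by the submitters' processing notes are STAR 2.5.1, bcl2fastq 2.2 and DESeq2, with mm10 as the build, and the annotation used is not given in the sources used here. Values in the single deposited table are a linear signal scaled by the authors in a way that the labels leave out, with a median ratio to the geometric mean over 12693 genes of 1.04 in each library. Multiples of 1 step per library gave the estimated totals, but only 45.2 to 64.6% of values were whole (within 0.001), so no count test was used.

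The members and the gene lists were chosen with earlier results of these data known. Genes with at least 10 in at least 3 libraries (18125) were tested as log2(signal + 1), a scale that understates changes of low genes, in R 4.3.3 with limma 3.58.1 and a variance trend. One fit gave means to the 6 groups (14 residual degrees of freedom), and chambers were compared by each pup's ventricle minus atrium difference (4 residual degrees of freedom). Tests were two-sided, and a Benjamini-Hochberg adjusted p under 0.05 over all genes was a call. The fits were tested on simulated data.

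Named beside the members were the 10 genes with the highest correlation with Mest, the 5 with the highest correlation of deviations, up to 4 called genes per direction of each list with the largest change (otherwise the 2 with the smallest p), and neighbours of the loci, not all of which are reported here. Replicate numbers mark shared litters per the labels, so they pair the samples (at E13.5, pairs 2 and 3 come from 1 litter). Deviations from group means correlated between same-numbered libraries at 0.212 to 0.638 in atria, 0.0200 to 0.0658 in ventricles and -0.0159 to 0.0159 at E13.5. The fit reported had no block for these pairs, since no source says that the authors used one. Alternatives were another pseudocount, no filter, quantile normalization, each library left out, wild-type pup 2 left out, preparation years apart, the replicate block, each tissue alone, and the third atrial pair left out, which was chosen after seeing the data. Of 26440 gene IDs 24372 matched GENCODE M21 with their version, and that of Igf2r matched without it. Promoters and microRNAs are RefSeq's (GRCm38.p6).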

Additional observations from a re-analysis of the deposited data

Results flagged for a closer look

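For 3 of the 10 genes every same-numbered pair moved 1 way in 1 setting and the opposite way in another. These differences were not tested in this form, and the share of all genes with such a pattern was not counted. Mest was chosen for its rise in knockout atria, and at E13.5 pairs 2 and 3 come from 1 litter. Xist was high in 1 library and low in the other of every E13.5 pair, and the part of sex was not tested. Mest was higher in all 3 knockout atria than in their wild-type littermates (log2 difference 2.18) and lower in all 3 knockout ventricles (-0.32). The limma interval of that ventricular difference ran from -0.82 to 0.17. H19 was lower in all 4 knockout E13.5 hearts than in the wild-type heart of the same number (-0.28) and higher in all 3 knockout ventricles (0.23). Peg3 was higher in all 4 knockout E13.5 hearts (0.24) and lower in all 3 knockout atria (-0.33).

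Among the 20 groups of 4 libraries checked for a library far from the rest, 2 had one, and chance gives about 1 in 20. In knockout E13.5 hearts the lowest library of Peg3, replicate 3 at 2988, lay a share of 0.895 of the group's range away from the next. In the same group the lowest library of Grb10, replicate 1 at 4014, lay 0.849 of the range away.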

How the results depend on the processing

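The difference of Mest between knockout and wild-type atria ran from 2.07 to 2.33 (log2) over all 27 alternatives run. In no alternative did any of the other 9 genes pass in a comparison of genotype or chamber, the replicate block included, where 0 of 9 passed at E13.5, in atria and in ventricles; the block thus changed no call of the pairs. Between wild-type stages in atria, 3 of 9 passed and leaving out 1 library gave 3 to 5, with 5 without knockout atrial replicate 3. In ventricles 5 of 9 passed and leaving out 1 library gave 4 to 6, and without the third atrial pair 8 did. With the 2018 preparations alone, which leaves 1 E13.5 library per genotype assumed to vary like the other groups, 1 passed in each chamber. Dlk1 in atria did not pass without E13.5 wild-type replicate 1 (adjusted p = 0.062) or atrial wild-type replicate 3 (0.080), and Peg3 in ventricles did not without E13.5 wild-type replicate 1 (0.052) or 4 (0.054) or ventricular wild-type replicate 3 (0.14). Of 38 calls of genes outside the 10 that were refitted, 17 were lost when 1 library or pup was left out, and 29 of the 32 that could be refitted with the 2018 preparations alone were lost there; 0 turned direction. The causes were not tested.

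The remaining reversals were of differences that did not pass. Between genotypes at E13.5, Plagl1 was -0.044 with the 2016 preparations alone. In atria, quantile normalization gave -0.018 for Meg3 and -0.067 for Igf2r, leaving out wild-type pup 2 gave -0.065 for Igf2, -0.016 for H19 and -0.27 for Meg3, and leaving out the third pair gave 0.045 for Plagl1. In ventricles Dlk1 was -0.013 with a pseudocount of 10. Of the stage differences in atria, Meg3 was 0.00459 without wild-type pup 2 and Peg3 was -0.10 with the 2018 preparations alone. Leaving out 1 library, the genotype differences at E13.5 ran from -0.038 to 0.091 for Igf2, -0.012 to 0.16 for Meg3, -0.21 to 0.026 for Cdkn1c, -0.22 to 0.19 for Plagl1 and -0.33 to 0.33 for Igf2r. In atria they ran from -0.065 to 0.60 for Igf2, -0.016 to 0.88 for H19, -0.30 to 0.77 for Meg3, -0.13 to 0.50 for Cdkn1c, -0.78 to 0.61 for Plagl1, -0.62 to 0.79 for Igf2r and -0.044 to 1.54 for Cep41. In ventricles they ran from -0.86 to 0.80 for Dlk1, -0.080 to 0.76 for Meg3, -0.40 to 0.31 for Peg3 and -0.077 to 0.20 for Igf2r. The atrial stage differences ran from -1.03 to 0.00459 for Meg3 and from -0.15 to 0.28 for Peg3. Groups of 3 and 4 libraries set the width of every interval, and the depth of Dlk1 and Klf14, whose signal was low, adds counting error.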
